A study of Mus musculus with 12 samples.

Results

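The 7 genes Hmgcs1, Idi1, Fdft1, Sqle, Cyp51, Srebf2 and Insig1, of cholesterol synthesis and of its control were examined in the arcuate nucleus (ARC) of mice. They were found by their symbols in the deposited table, 1 row each, which made 7 of the 38283 genes listed. Although they are grouped here as sterol synthesis and uptake genes, 5 encode enzymes of synthesis and 2 encode controls of it, and none encodes a receptor for sterol uptake. Genes of sterol uptake were therefore read from a separate list. The ARC, the hypothalamic nucleus that holds the Agrp and Pomc feeding neurons, had been cut out of brain sections by laser capture, and its RNA was amplified before sequencing. A total of 5 libraries came from wild type C57BL/6 mice (WT) and 7 from mice homozygous for the R299Q mutation in the γ2 subunit of AMP-activated protein kinase (AMPK), called Homo. All mice were male, 8 weeks old and fed ad libitum. The mutation is a germline knock-in and so is present in every cell type of the captured tissue. It changes a single codon, which a table of gene levels does not show, so the genotypes were taken from the labels alone. The labels do not say whether each library came from its own mouse, and p-values therefore measure the spread between libraries.

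Cholesterol is built from acetyl-CoA through mevalonate, the isoprenoid units and squalene, and the brain makes its own because plasma lipoproteins do not cross the blood-brain barrier. SREBP2, the product of Srebf2, is held in the endoplasmic reticulum by SCAP and the INSIG proteins while sterol is plentiful. When sterol falls it is carried to the Golgi and cleaved, and the released fragment enters the nucleus and raises transcription of the synthesis enzymes and of Insig1. AMPK, a sensor of low cellular energy, restrains sterol synthesis through phosphorylation of protein.

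All 7 genes are protein coding. On GRCm38, Hmgcs1 lies on the plus strand at chr13:119690379-119708260 and Idi1 on the plus strand at chr13:8885501-8892451. Sqle (chr15:59315077-59331192) and Srebf2 (chr15:82147181-82205379) share a chromosome and both lie on the plus strand. Insig1 (chr5:28071363-28078662, plus) and Cyp51 (chr5:4081145-4104746, minus) also share one, and Fdft1 lies at chr14:63145150-63179578 on the minus strand. RefSeq promoter windows (GRCm38.p6) were matched for 5 of the 7 genes, all but Sqle and Fdft1, and the 250 bases before each start were searched on both strands for letters of factors that act on sterol genes. The letters of a sterol regulatory element, the kind of site that SREBP2 binds, with any base at 1 place (TCACNCCAC), were found in Hmgcs1 alone, 137 to 129 bases before the start, and in 1.053% of all 32851 windows. Only exact matches were counted, so the other windows may hold forms of the element that differ from these letters. CCAAT, the letters of the NF-Y box, stood in 5 of 5 windows and in 33.85% of all windows. GGGCGG, those of the GC box bound by Sp1, stood in 5 of 5 and in 32.74%. These windows are placed by the RefSeq start. All matches in Idi1 (69 to 10 bases before it) and the CCAAT of Cyp51 (29 to 25) lay inside the gene coordinates given above. So did the GC boxes of Srebf2 at 79 to 74, 52 to 47 and 34 to 29 bases. Upstream of the gene coordinates, CCAAT stood in Hmgcs1, Insig1 and Srebf2 only, and GGGCGG in these genes and Cyp51. For 2 of these genes the promoter is printed 5′ to 3′ on the plus strand, with the matches to these motifs on either strand in capitals: that of Hmgcs1 (chr13:119690101-119690350), which holds the sterol regulatory element letters, and that of Insig1 (chr5:28071162-28071362), the gene with the largest genotype difference of the 7.
Hmgcs1: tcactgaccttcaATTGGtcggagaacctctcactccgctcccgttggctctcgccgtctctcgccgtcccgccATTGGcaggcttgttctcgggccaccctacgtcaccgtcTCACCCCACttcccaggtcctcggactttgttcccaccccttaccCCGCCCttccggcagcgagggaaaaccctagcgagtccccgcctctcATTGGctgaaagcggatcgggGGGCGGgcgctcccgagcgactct
Insig1: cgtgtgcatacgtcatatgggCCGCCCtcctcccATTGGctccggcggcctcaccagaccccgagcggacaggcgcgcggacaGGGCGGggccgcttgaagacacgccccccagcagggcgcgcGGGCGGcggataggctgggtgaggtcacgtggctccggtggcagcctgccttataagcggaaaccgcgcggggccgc
The windows differ in the letters they hold: Hmgcs1 has 3 CCAAT boxes and 2 GC boxes, and Insig1 has 1 CCAAT box and 3 GC boxes. A match is a description of the sequence and does not show that a factor was bound there.

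The libraries fell into 2 sets by the number of genes listed above 0. The set with fewer held WT 1, WT 2 and Homo 1 to Homo 5 (15742 to 16467 genes), and the set with more held WT 3 to WT 5, Homo 6 and Homo 7 (18141 to 18635 genes). Genotype and set therefore overlap in part, and the genotype difference of each of the 7 genes is also given with the set as a term in the fit or within each set. The labels name no batch that would account for the sets. The depth of each library was not stated. The spacing of the lowest values gave it for 9 of the 12 libraries: 1 fragment per kilobase of transcript corresponded to 0.202 to 0.327 FPKM (fragments per kilobase of transcript, scaled to the mapped fragments of the library) in 4 libraries of the set with fewer genes and to 0.0822 to 0.124 FPKM in the 5 of the other. On that scale the lowest value of Idi1, in Homo 5, rested on about 13.6 fragments. The lowest of each of the other 6 genes in these 9 libraries rested on about 101 or more. These counts are rough, as they take the longest coding transcript of each gene, and Idi1 has 4 coding transcripts. In the 3 libraries whose spacing was unclear, among them Homo 3, the fragments behind a value are uncertain. The line between clear and unclear was narrow: 9.1% of the values examined lay on the step in WT 2 (unclear) and 10.8% in WT 3 (clear). Markers of neurons, astrocytes and oligodendrocytes were all present. In bulk tissue, fewer cells of a type and less RNA per cell cannot be told apart.

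In the ARC the 7 transcripts spanned moderate levels, and 4 of the 5 enzymes were the highest. Over all 12 libraries, mean levels were 27.2 FPKM for Sqle, 28.8 for Cyp51, 26.1 for Hmgcs1 and 25.1 for Fdft1. These 4 did not differ beyond their spread when neighbours in the order of mean log2(FPKM + 1) were compared within libraries (exact sign-flip permutation test, two-sided, adjusted p = 0.912 for each of 3 of the 6 pairs). The controls followed, Srebf2 at 16.3 FPKM and Insig1 at 10.5 FPKM, and the isomerase Idi1 was the lowest at 5.65 FPKM. Fdft1 exceeded Srebf2 by 0.58 on the log2 scale (SD 0.466, higher in 11 of 12 libraries, exact permutation p = 0.00195, adjusted p = 0.00391). Srebf2 exceeded Insig1 by 0.60 and Insig1 exceeded Idi1 by 0.87, each in 12 of 12 libraries, with an exact permutation p of 0.00049, the smallest that 12 libraries allow (adjusted p = 0.00146). The tests of neighbours thus separated Fdft1, the lowest of the 4 enzymes by mean log2 level, from Srebf2, and the genes below it from each other. Sqle, Cyp51 and Hmgcs1 were not themselves tested against the control genes. No order was found inside the group of 4.

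**Figure D1:**
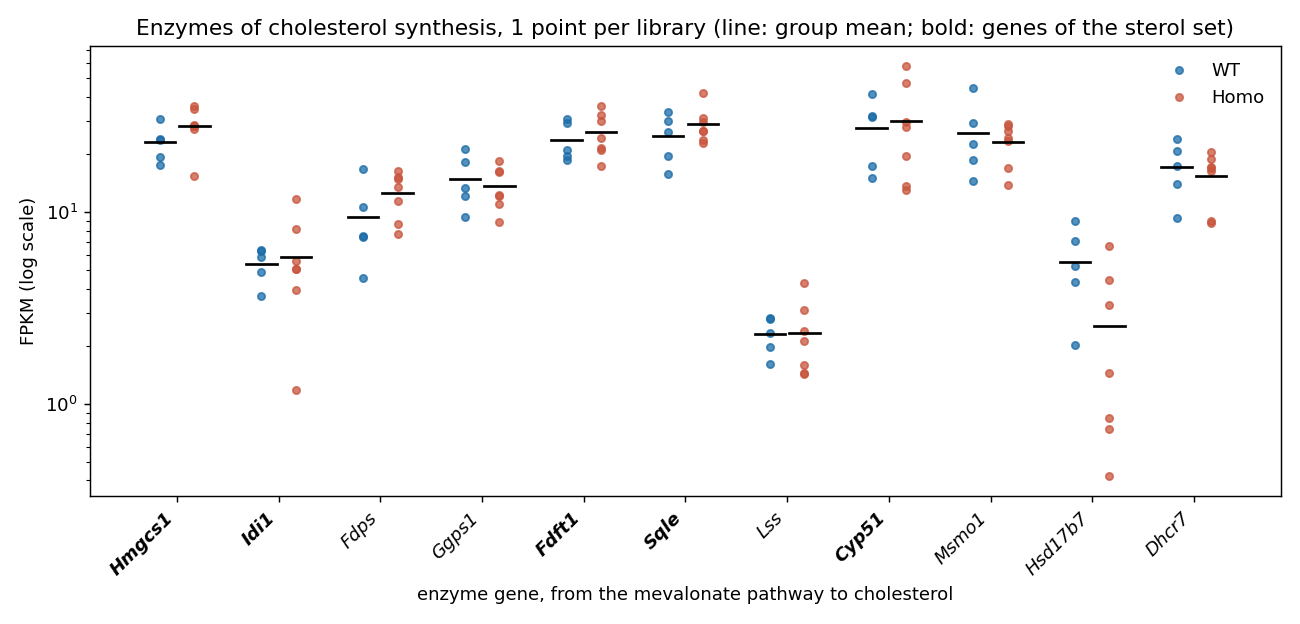
FPKM (log axis) of enzymes from the mevalonate pathway to cholesterol, 1 point per library, with WT in blue and Homo in red. A line marks each group mean, and the 5 enzymes of the sterol set are in bold. The order follows the pathway except for Ggps1, which makes the geranylgeranyl donor of protein prenylation, and Lbr is not shown. The enzymes Hmgcs1, Fdft1, Sqle and Cyp51 lie between 13.02 and 57.5 FPKM, and Idi1 between 1.19 and 11.7 FPKM.

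The question put to the genotypes was whether a mutant AMPK goes with other levels of the sterol genes. None of the 7 passed the test: 0 of 7 had an adjusted p under 0.05 (limma on log2(FPKM + 1), Benjamini-Hochberg), against 0.00713% of the 14017 genes tested, and 0 of 7 had an unadjusted p under 0.05, against 5.55%. In none of the 7 were the genotypes free of overlap, against 0.221% of all genes. The mean log2 level was higher in Homo for 5 of the 7, against 49.3% of all genes. The median log2 fold change over the 7 was 0.12, beside -0.0062 over all genes tested. With the library set as a term these medians were 0.23 and 0.010. The intervals below show what sizes of change these libraries leave possible, and a p that misses the threshold does not show that the genotypes were alike.

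**Figure D2:**
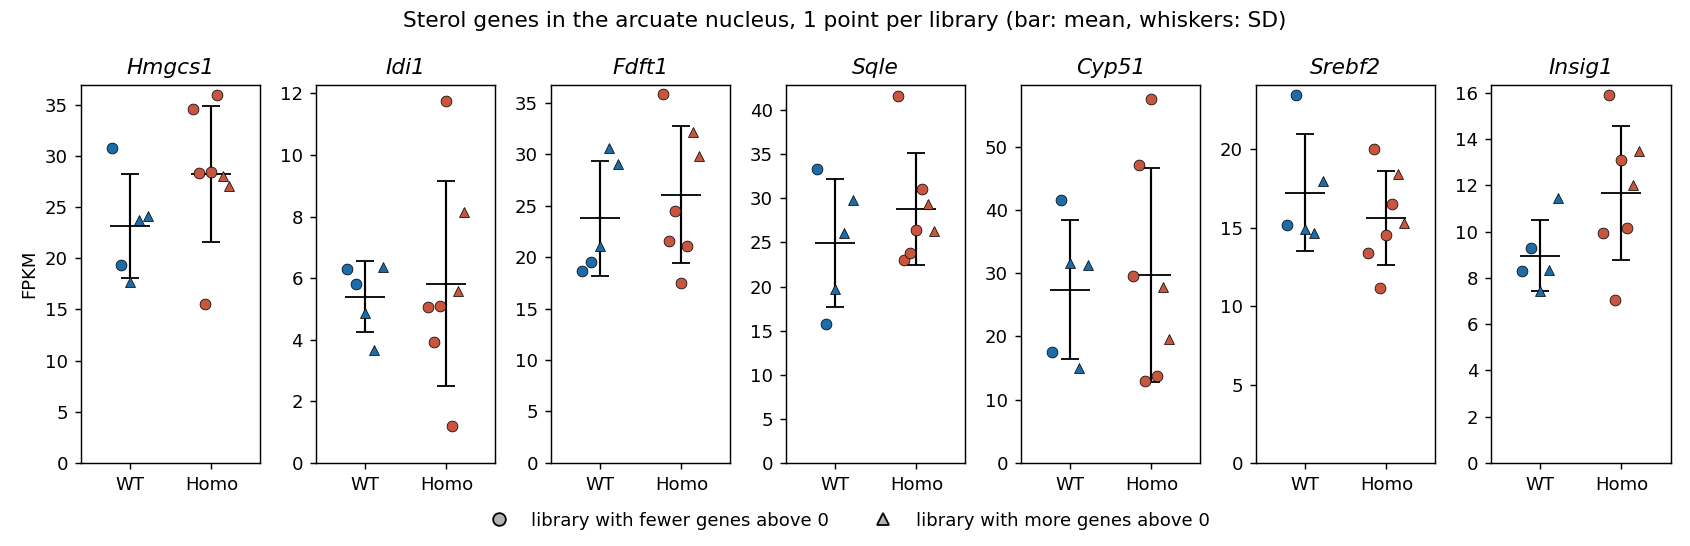
FPKM of each of the 7 sterol genes in the 5 WT and 7 Homo libraries, 1 point per library with the mean and SD of each genotype, and circles for the library set with fewer genes above 0 and triangles for the set with more. WT and Homo overlap in every panel, and Insig1 has the largest ratio of means (1.30), from 8.97 to 11.7 FPKM.

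Hmgcs1 encodes the cytosolic HMG-CoA synthase, an early step of the mevalonate pathway. It measured 30.8, 19.3, 17.7, 23.7 and 24.1 FPKM in WT 1 to WT 5, and in Homo the lowest value was 15.5, the median 28.3 and the highest 35.9. In all, 6 of the 7 Homo libraries exceeded the median of WT, but Homo 3 was the lowest of all 12. The means were 23.1 ± 5.09 FPKM (SD, n = 5) in WT and 28.3 ± 6.63 (SD, n = 7) in Homo. On the log2 scale Homo differed from WT by 0.27 (SE 0.215, 95% interval -0.195 to 0.726, limma adjusted p = 0.919, exact two-sided permutation p = 0.227). It was 0.16 within the set with fewer genes and 0.34 within the set with more.

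Idi1 encodes the isomerase that interconverts the isoprenoid units. WT 1 to WT 5 measured 6.30, 5.82, 4.86, 3.65 and 6.36 FPKM, and Homo ran from 1.19 through a median of 5.09 to 11.7. Both the lowest and the highest of the 12 values were thus Homo libraries, Homo 5 and Homo 4. The means were 5.4 ± 1.15 FPKM (SD, n = 5) and 5.82 ± 3.34 (SD, n = 7). The log2 fold change was -0.055 (SE 0.350, 95% interval -0.804 to 0.695, limma adjusted p = 0.993, exact permutation p = 0.886), and leaving out Homo 5 turned it to 0.19. The direction also differed between the library sets, at -0.36 in the set with fewer genes and 0.41 in the other, a difference that did not pass its own test (limma interaction 0.76, adjusted p = 0.910). The neighbouring paralogue Idi2 was above 0 in 3 libraries, at up to 0.115 FPKM.

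Fdft1 encodes squalene synthase, the first step given over to sterols alone. Its values were 18.7, 19.5, 21.1, 30.6 and 29.1 FPKM in WT 1 to WT 5, and 17.5, 24.5 and 35.8 as the lowest, median and highest in Homo. The ranges of the genotypes nearly coincided. Homo exceeded WT by 0.12 on the log2 scale (SE 0.213, 95% interval -0.337 to 0.574, limma adjusted p = 0.967, exact permutation p = 0.558). With the library set as a term this was 0.25. It was 0.039 without Homo 1 and 0.21 without WT 4. Of the 7 genes Fdft1 moved most with the library set: it was higher by 0.42 on the log2 scale in the set with more genes, with a limma adjusted p of 0.60 (0.0535 before adjustment).

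Sqle encodes squalene epoxidase, a rate-limiting oxygen-dependent step. WT 1 to WT 5 gave 33.3, 15.7, 19.7, 26.1 and 29.8 FPKM, while the lowest Homo value was 23.0, the median 26.4 and the highest 41.6. The 2 lowest of the 12 libraries were WT 2 and WT 3, and the highest was Homo 1. The difference on the log2 scale was 0.22 (SE 0.213, 95% interval -0.232 to 0.679, limma adjusted p = 0.923, exact permutation p = 0.3005). It was 0.078 without WT 2 and 0.34 without WT 1. The set with fewer genes gave 0.30 and the set with more 0.16.

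Cyp51 encodes lanosterol 14α-demethylase, the first enzyme after the ring closure to lanosterol. It measured 17.5, 41.55, 31.6, 15.1 and 31.3 FPKM in WT 1 to WT 5, and 13.02, 27.8 and 57.5 as the lowest, median and highest in Homo. High and low libraries stood in both genotypes. The log2 fold change was 0.022 (SE 0.375, 95% interval -0.780 to 0.825, limma adjusted p = 0.995, exact permutation p = 0.962). The sign turned, to -0.032, once the library set was a term. Its interval was the widest of the 7.

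Srebf2, which encodes the transcription factor of the pathway, was the least variable of the 7. It measured 15.2, 23.5, 14.9, 14.7 and 18.0 FPKM in WT 1 to WT 5, and 11.1, 15.3 and 20.1 as the lowest, median and highest in Homo. The highest value was WT 2 and the lowest Homo 3. Homo against WT gave a log2 fold change of -0.13 (SE 0.191, 95% interval -0.542 to 0.275, limma adjusted p = 0.946, exact permutation p = 0.424). It was -0.021 without WT 2, and it was -0.33 within the set with fewer genes and 0.084 within the other.

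Insig1 encodes the protein that retains the SREBP and SCAP complex in the endoplasmic reticulum, and it is itself a target of SREBP2. WT 1 to WT 5 measured 8.30, 9.29, 7.45, 8.35 and 11.4 FPKM, and Homo ran from 7.03 through a median of 12.04 to 15.9. Homo 3 was again the lowest of the 12, and the other 6 Homo libraries exceeded the median of WT. The means were 8.97 ± 1.53 FPKM (SD, n = 5) and 11.7 ± 2.89 (SD, n = 7), a ratio of 1.30. The log2 fold change, the largest of the 7, was 0.32 (SE 0.208, 95% interval -0.122 to 0.768, limma adjusted p = 0.915, exact permutation p = 0.102). It was 0.28 and 0.47 within the sets with fewer and more genes.

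Homo 3 was the lowest library for Hmgcs1, Cyp51, Srebf2 and Insig1, and its median over all genes tested, 2.63 on the log2(FPKM + 1) scale, was also the lowest of the 12. Without it the log2 fold change was 0.40 for Hmgcs1 and 0.43 for Insig1, at unadjusted p-values of 0.0396 and 0.0353 in limma, and neither passed after adjustment over all genes. Across the 26 alternative settings, 0 of 182 values of the 7 genes passed the adjusted threshold, and the smallest adjusted p was 0.778.

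**Figure D3:**
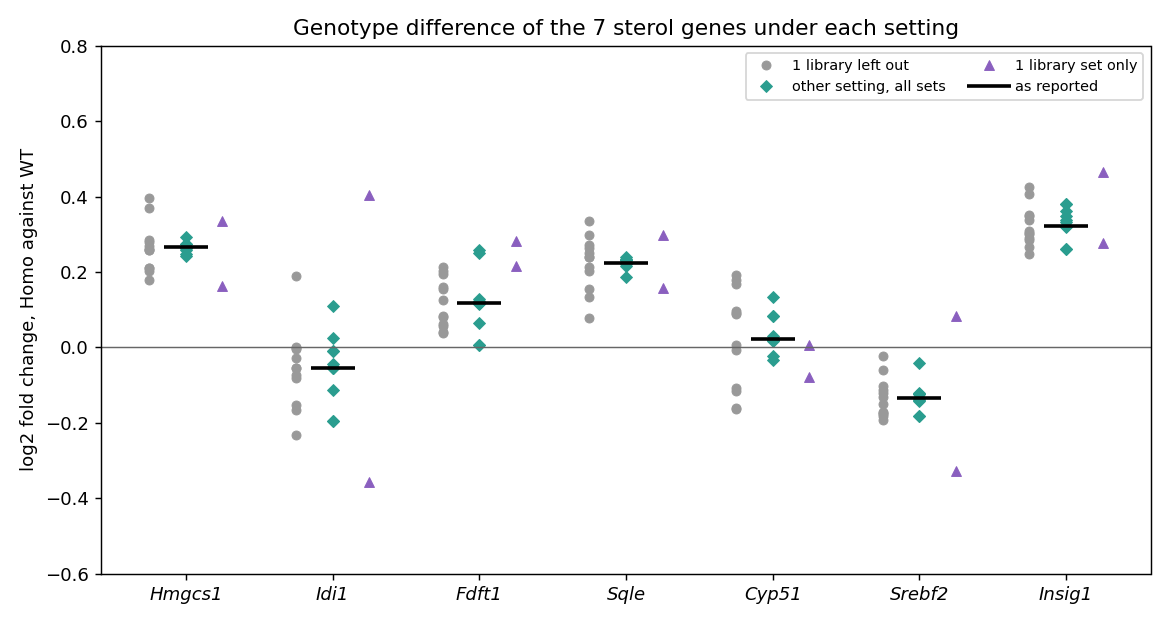
Log2 fold change, Homo against WT, of the 7 sterol genes as reported (black bars) and under each alternative: circles leave out 1 library, triangles use 1 library set and diamonds stand for other settings. Hmgcs1, Fdft1, Sqle and Insig1 stay above 0 in all. Idi1 (-0.36 to 0.41), Cyp51 (-0.16 to 0.19) and Srebf2 (-0.33 to 0.084) lie on both sides of 0.

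The library set, like the genotype, gave no call among the 7. With both terms in the fit, 0 of 7 differed between the sets at an adjusted p under 0.05, against 0.178% of all genes, and 0 of 7 at an unadjusted p under 0.05, against 8.42%.

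The 7 genes differed in how far they varied between libraries of a genotype. The within-genotype SD of log2(FPKM + 1) was 0.722 for Cyp51 and 0.639 for Idi1, and it was 0.270 for Srebf2, 0.303 for Insig1 and 0.344 to 0.350 for the other 3. Among the 1902 genes within 1.5-fold of its level, 81.0% had a smaller SD than Cyp51. For Srebf2 that share was 7.39% of 2748 genes and for Insig1 11.1% of 3225. It was 25.9% for Fdft1, 27.5% for Sqle, 28.2% for Hmgcs1 and 63.5% for Idi1. Srebf2 and Insig1 were thus the steadiest of the 7 for their level. Fdft1, Sqle and Hmgcs1 were on the steady side as well, and Cyp51 and Idi1 on the variable side.

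Whether the 7 moved together from library to library was examined with each gene centred within its library set. Of the 21 pairs, 13 had a Pearson r above 0, the median r was 0.126, and 0 had an adjusted p under 0.05. The pair with the highest r was Hmgcs1 and Sqle at 0.741 (permutation p = 0.00531, adjusted p = 0.112; Spearman's rho 0.797, permutation p = 0.00305, adjusted p = 0.064). It was 0.78 without the 2 libraries farthest from the median of Hmgcs1, and 0.715 within the 7 libraries of the set with fewer genes (exact permutation p = 0.0716). The lowest r, -0.423, was that of Sqle with Srebf2 (permutation p = 0.169, adjusted p = 0.444), and its sign turned, to 0.252, without the 2 libraries farthest from the median of Sqle. The 12 points of each pair share amplification and depth, so a common level of a library enters every r.

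**Figure D4:**
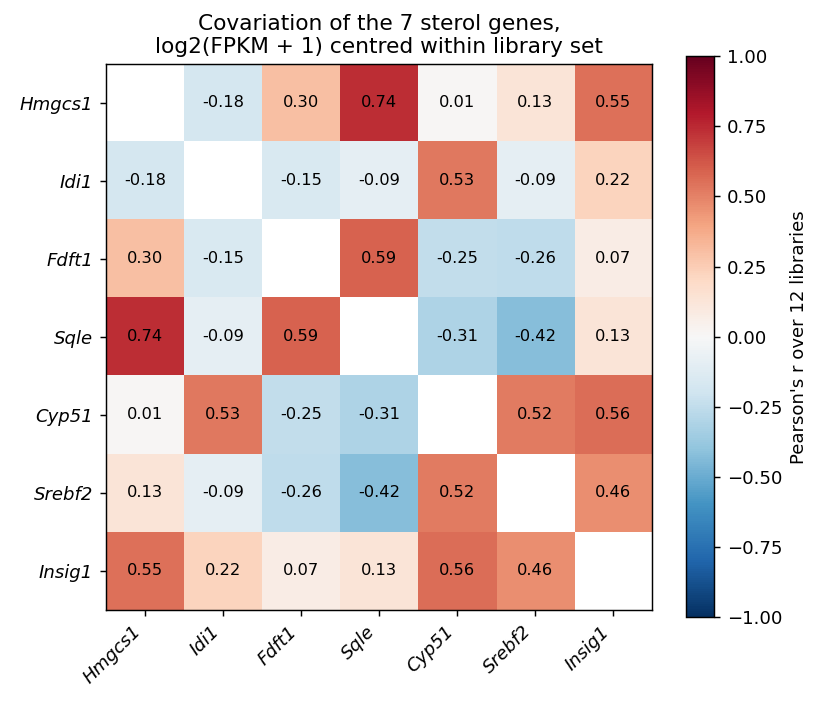
Pearson r of the 21 pairs of the 7 sterol genes over 12 libraries, on log2(FPKM + 1) centred within library set, with the scale from blue (negative) to red (positive). The values run from -0.423 (Sqle and Srebf2) to 0.741 (Hmgcs1 and Sqle).

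The 7 genes, again centred within set, were then each divided by their SD over the libraries and averaged. This average was set beside every other gene with a mean of at least 10 FPKM, centred in the same way. Of 5868 genes, the 5 with the highest r over the 12 libraries were Rbbp7 (0.974), Ncam1 (0.953), Cpe (0.939), Cops3 (0.936) and Ralgapa1 (0.935), none of them a sterol gene. The median r was 0.263 and the 95th percentile 0.739. Of the 40 other sterol genes tested, whatever their level, 30 had an r above 0 and the median was 0.253, beside 70.6% and 0.212 over all genes tested. The highest among them were Stard4, a carrier of sterol through the cytosol, at 0.706 and Msmo1, the methylsterol monooxygenase, at 0.662.

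The rest of the pathway was read from 5 lists of 50 genes that include the 7, of which 47 passed the filter of a mean of 1 FPKM. None of the 47 passed the test (smallest adjusted p 0.797), and 1 positive and 1 negative difference had an unadjusted p under 0.05, against 5.55% of all genes. The mean log2 level was higher in Homo for 57.4% of them (27 genes), against 49.3% of all genes. Their median log2 fold change was 0.028. Of the 9 mevalonate genes, 7 were higher in Homo with a median of 0.25, and 0 had an unadjusted p under 0.05. The median turned between the library sets, at -0.055 in the set with fewer genes and 0.41 in the set with more. The median over all genes tested turned as well, at -0.081 and 0.13. Fdps, the farnesyl diphosphate synthase, exceeded the median of WT in 7 of 7 Homo libraries with a difference of 0.45 on the log2 scale (limma adjusted p = 0.915, exact permutation p = 0.148), although WT 2, at 16.8 FPKM, was the highest of the 12. Within the sets the difference of Fdps was 0.093 and 0.71. Ggps1, which makes the geranylgeranyl donor of protein prenylation, stood at -0.10.

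Of the 13 genes from squalene to cholesterol, 6 were higher and 7 lower in Homo, with a median of -0.026. Within the sets with fewer and more genes it was -0.12 and 0.13, near the -0.081 and 0.13 over all genes tested. Hsd17b7, a sterol ketoreductase, averaged 5.53 ± 2.66 FPKM (SD, n = 5) in WT and 2.55 ± 2.35 (SD, n = 7) in Homo. Its log2 fold change of -1.03 (SE 0.440, 95% interval -1.97 to -0.09) had p = 0.0339 in limma before adjustment and p = 0.899 after it, and an exact permutation p of 0.0631. Hsd17b7 was also higher by 1.31 in the library set with more genes. Its genotype difference was -0.62 with the set as a term, -0.89 within the set with fewer genes and -0.30 within the set with more. The other named enzymes of this stretch differed less: -0.14 for Dhcr7, -0.096 for Msmo1 and -0.026 for Lss. With the library set as a term they were -0.068, -0.033 and 0.045. Lbr, a sterol reductase of the inner nuclear membrane, stood at 0.46 (limma adjusted p = 0.915, exact permutation p = 0.131), and at 0.56 with the set as a term. Its mean was 0.709 FPKM in WT, under the filter of 1 FPKM, and 1.504 in Homo. Lbr was thus tested only through its Homo libraries, of which Homo 5 reached 3.50 FPKM.

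Of the 7 control genes, 3 were higher in Homo and 0 had an unadjusted p under 0.05, with a median of -0.12 (0.20 and -0.056 within the sets with fewer and more genes). Srebf1, whose SREBP1 products act mainly on fatty acid genes, averaged 35.3 ± 15.8 FPKM (SD, n = 5) in WT and 26.3 ± 20.9 (SD, n = 7) in Homo. Its log2 fold change was -0.63 (limma adjusted p = 0.919, exact permutation p = 0.337). Adding the library set as a term gave -0.28. Scap, the escort protein, stood at -0.15 and Insig2, the second retention protein, at -0.12. Both turned with the library set: within the set with fewer genes Scap was 0.20 and Insig2 0.21, and within the set with more they were -0.36 and -0.16.

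The uptake and transport list had 11 of 12 genes tested, 1 being below the filter, and 6 of the 11 were higher in Homo with a median of 0.019 (0.049 and 0.042 within the sets). Lipa, the lysosomal lipase that frees cholesterol from its esters, stood at -0.42 (limma adjusted p = 0.908, exact permutation p = 0.0859), with -0.55 within the set with fewer genes and 0.034 within the set with more. Npc1 and Npc2 export cholesterol from the lysosome as partners. Npc1 stood at -0.45 (exact permutation p = 0.177) and Npc2 at 0.28 (exact permutation p = 0.25). With the library set as a term Npc1 was -0.27 and Npc2 0.44. Within the sets with fewer and more genes Npc1 was -0.43 and -0.07, and Npc2 0.40 and 0.49.

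In the list of efflux, turnover and esterification, 7 of 9 genes were tested, Nr1h3 and Ch25h being below the filter. Of the 7, 5 were higher in Homo, with a median of 0.090. Within the sets with fewer and more genes it was -0.34 and 0.37, beside -0.081 and 0.13 over all genes tested. Abca1, which loads cellular cholesterol onto apolipoproteins, measured 2.31, 2.73, 3.86, 3.29 and 3.34 FPKM in WT 1 to WT 5, and in Homo 3.36, 5.28 and 8.65 as the lowest, median and highest. All 7 Homo values exceeded the median of WT, and only Homo 4 lay within the WT range. The log2 fold change was 0.70 (SE 0.239, 95% interval 0.191 to 1.21), with p = 0.0105 in limma before adjustment, p = 0.797 after it and an exact permutation p of 0.0088. It was 1.01 within the set with fewer genes and 0.31 within the other. Apoe, the main apolipoprotein of the brain, averaged 625.2 ± 205 FPKM (SD, n = 5) in WT and 770 ± 157 (SD, n = 7) in Homo, a difference of 0.34 on the log2 scale (exact permutation p = 0.169). The direction of Apoe turned between the sets, at -0.10 in the set with fewer genes and 0.64 in the set with more. Abcg4, a sterol transporter of neurons and glia, stood at -0.44, and Cyp46a1, the neuronal cholesterol 24-hydroxylase, at 0.17. These 2 turned as well, Abcg4 from -1.08 to 0.048 and Cyp46a1 from -0.36 to 0.39 between the sets with fewer and more genes.

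**Figure D5:**
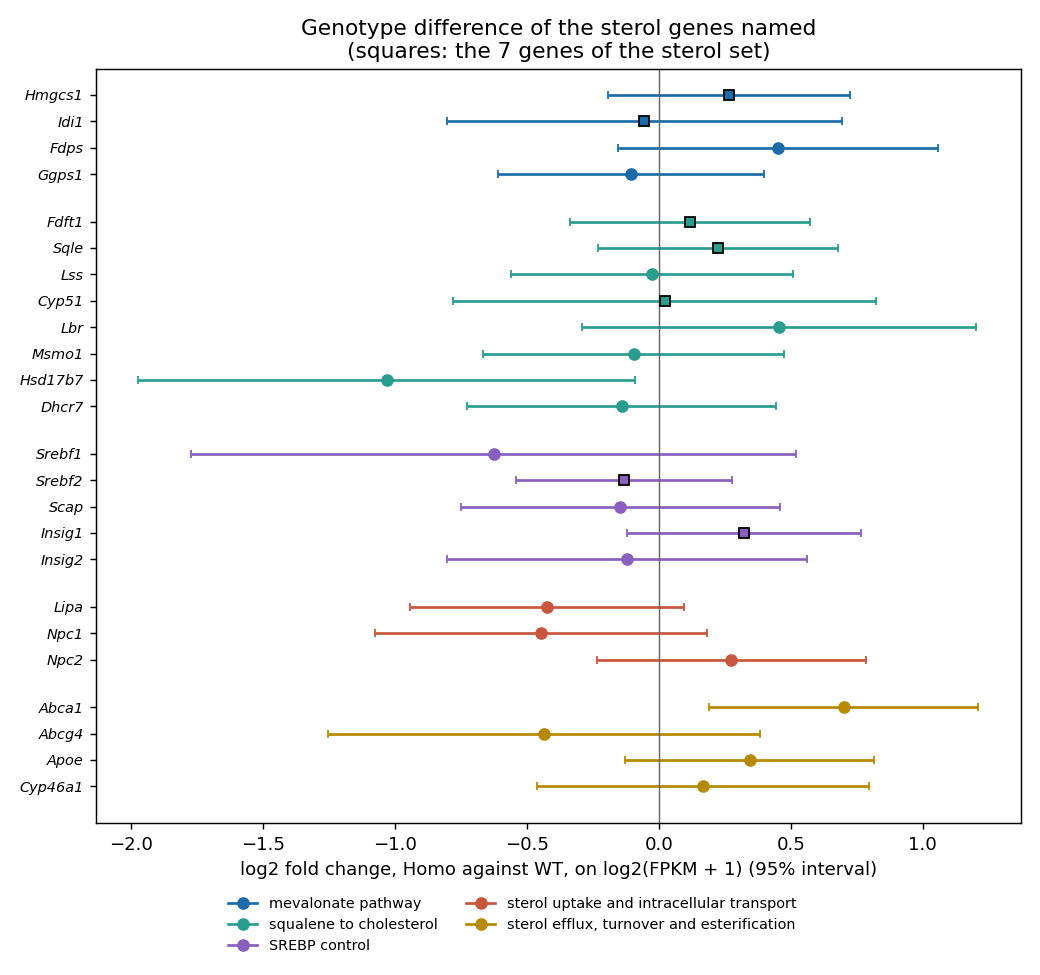
Log2 fold change, Homo against WT, on log2(FPKM + 1) with its 95% interval for the 24 sterol genes named, coloured by list, with squares for the 7 genes of the sterol set. The interval of Abca1 (0.191 to 1.21) lies above 0, that of Hsd17b7 (-1.97 to -0.09) below 0, and the other 22 include 0.

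Markers of 9 cell types were summed per library, and 0 of the marker genes differed between genotypes at an adjusted p under 0.05 in limma. The 7 oligodendrocyte markers were all higher in Homo, with a median log2 fold change of 0.40, 0.73 with the library set as a term, and 0 with an unadjusted p under 0.05. Their sum was 89.3 to 556 FPKM in WT and 155 to 409 FPKM in Homo. Both markers of oligodendrocyte precursors were lower in Homo, with a median of -0.37 and sums of 5.00 to 8.14 FPKM in WT and 1.92 to 6.87 in Homo. Of the 6 astrocyte markers 4 were higher in Homo, and the sum of the 6 was 261 to 438 FPKM in WT and 209 to 375 FPKM in Homo. Slc1a2, the highest of them, averaged 206 FPKM in WT and 145 in Homo, a log2 fold change of -0.51 (limma adjusted p = 0.899). With the library set as a term 1 of the 6, Slc1a2 at -0.65, had an unadjusted p under 0.05, against 670 of the 14017 genes tested. Glial markers thus overlapped between the genotypes in their sums.

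Of the 5 neuronal markers 3 were higher in Homo, with sums of 562 to 759 FPKM in WT and 535 to 863 in Homo. The 6 markers of arcuate neurons were all higher in Homo, 2 of them at an unadjusted p under 0.05, against 5.55% of all genes. With the library set as a term 0 of the 6 had an unadjusted p under 0.05 and their median moved from 0.42 to 0.28. Within the sets with fewer and more genes it was -0.11 and 0.47, beside -0.081 and 0.13 over all genes tested. They moved with the set: 1 of the 6 differed between the sets at an adjusted p under 0.05, against 0.178% of all genes. Their sums were 2823 to 4075 FPKM in the set with fewer genes and 1104.5 to 3071 in the set with more. By genotype the sums were 1104.5 to 3718.5 FPKM in WT and 2823 to 4075 in Homo.

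The 5 microglial markers were all higher in Homo, with a median of 0.37. Of them 1 had an unadjusted p under 0.05, against 5.55% of all genes. With the library set as a term 2 of them had, against 670 of the 14017 genes tested. Their sums were 22.3 to 32.8 FPKM in WT and 25.7 to 46.9 in Homo. The 3 endothelial markers tested were also all higher, with a median of 0.30 and sums over the 4 listed of 10.7 to 18.0 FPKM in WT and 11.7 to 28.4 in Homo. Of the 5 tanycyte markers 4 had lower levels in Homo, 1 of them with p under 0.05 before adjustment, against 5.55% of all genes. The 5 summed to 21.1 to 45.8 FPKM in WT and 13.6 to 40.3 in Homo. Pituitary markers, of which 2 of 5 were tested, summed to 0 to 114 FPKM in WT and 0 to 56.4 in Homo, and to at most 9.37 in the set with fewer genes. No marker was at 0 in every library, and the part of cell composition in the levels of the sterol genes, Abca1 included, was not tested.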

How the data were processed

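RNA from laser-captured ARC of 5 WT and 7 Homo libraries was amplified and sequenced. The authors deposited 1 table of FPKM per gene and library, and the submitters' processing notes name TopHat2 2.0.8, Cufflinks 2.2.1 and GRCm38. FPKM values are normalized by length and depth and are not counts, so no count test was used. Columns headed Home4 and Home5 were read as Homo 4 and Homo 5 by genotype and number, and 0 columns of values were left unmatched. Genes with a mean of at least 1 FPKM (14017) were fitted with limma 3.58.1 in R 4.3.3 on log2(FPKM + 1), with genotype as the only term, an intensity trend and robust variances, and p-values were adjusted by Benjamini-Hochberg over all of them. Fold changes on that scale understate those of low genes. Single genes were also tested by exact permutation over all 792 assignments of libraries to genotype (smallest p 0.0013). The fit was tested on simulated data with independent values for each gene and no library sets, so that test does not cover the sets.

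The 7 genes and all lists were chosen with earlier results of these data known. Named genes were the 7, sterol genes listed by role (some are not reported here), the gene with the smallest p in each direction of each list, and the 5 genes most like the 7. The file lists Msmo1 as Sc4mol, which was matched by gene identifier. Gene coordinates are those of GENCODE for GRCm38. Promoters were shortened to bases upstream of the start in both annotations before printing. Alternatives covered the pseudocount, the filter, scaling, the library set, array weights, a replicate block and leaving out each library.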

Additional observations from a re-analysis of the deposited data

Results flagged for a closer look

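In 48 groups, the WT and Homo values of 24 named sterol genes, 1 library stood far from the rest of its group by Dixon's test, which chance does in about 1 of 20 groups. Npc1 measured 24.8 FPKM in Homo 7, with a gap of 0.861 of the range. Without Homo 7 its log2 fold change was -0.64 (limma unadjusted p = 0.0213, adjusted p = 0.855), against -0.45 with all libraries.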

How the results depend on the processing

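Of the 182 values that 26 alternatives gave for the 7 genes, 168 kept their direction, 14 turned it and 0 passed the threshold. The median log2 fold change of the 7 ranged from 0.039 to 0.21 when each library was left out and from 0.083 to 0.24 otherwise. Idi1 became 0.11 with array weights, 0.41 within the library set with more genes and 0.024 with the set as a covariate after quantile normalization, and ranged from -0.23 to 0.19 over the left-out libraries. It turned without WT 5 (0.0007) and without Homo 5 (0.19). Cyp51 became -0.032 with the set as a covariate, -0.078 within the set with more genes and -0.022 with the set as a covariate after quantile normalization, and ranged from -0.16 to 0.19 over the left-out libraries. It turned without WT 1 (-0.11), WT 4 (-0.16), Homo 1 (-0.0071), Homo 2 (-0.12) or Homo 4 (-0.16). Srebf2 became 0.084 within the set with more genes. The cause was not tested. Among all genes, 1 passed the threshold with all libraries and 6 within the set with fewer genes, 19 within the set with more, 4 with Homo 1 to 5 only and 1 to 3 over the left-out libraries (3 without WT 2, 2 without Homo 4). The replicate block leaves Homo 6 and Homo 7 without a partner, so its values rest on Homo 1 to 5. With it 2 genes passed and 977 had an unadjusted p under 0.05, against 4 and 973 for those libraries without the block, and 0 of the 7 passed. The numbers do not pair the libraries: same-numbered WT and Homo libraries correlated at -0.0537 to 0.0288 and 0 of 5 correlated best with their own number. Ordered by the WT libraries alone, 3 of the 7 genes kept their place, and 2 of the 5 genes most like the 7 were shared without centring, an alternative chosen after seeing the data. Scaling moved the median of all genes by at most 0.0238. Depth limits Idi1 most, and FPKM without counts gives no counting interval for any gene.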
